A study of Mus musculus with 6 samples.

Results

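The heat shock genes described here are 10 protein-coding genes given by symbol: Hspa8, Hspa1a, Hspa1b, Dnajb1, Hsph1, Hspa4l, Hsp90aa1, Hspd1, Hspe1 and Hspb1. They were looked up by symbol among the 24517 genes of the count tables of mouse colon. All 10 were found, and all 10 were among the 16347 genes that passed the filter on low counts. The set was labelled as cytosolic, which fits the HSP70, HSP110, HSP90, J-domain and small heat shock proteins in it, but the proteins of Hspd1 and Hspe1 work inside mitochondria.

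RNA sequencing of colon tissue compared 3 libraries of Nsd2fl/fl mice (NSD2fl/fl in the labels) with 3 libraries of Nsd2ΔIE mice (NSD2ΔIE in the labels). Nsd2fl/fl mice carry a floxed, undeleted Nsd2 gene, and in Nsd2ΔIE mice Villin-Cre, which is active in intestinal epithelium, deletes it. Nsd2 encodes a histone methyltransferase that places the dimethyl mark on lysine 36 of histone H3. The mice of all 6 libraries had a C57BL/6J background and ate HFCD, a diet rich in fat and cholesterol. The feeding time was 16 weeks by the labels, while the study's text gives a longer one. The methods describe male littermates that were young adults when the diet began. There was no group on a normal diet and no group exposed to heat or another proteotoxic stress, and the colon wall holds muscle, nerve, stromal and immune cells in which this Cre is not active. The labels do not say whether each library came from its own animal, so p-values measure only the spread between these libraries.

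Nsd2 itself had 47.8 to 68.9 CPM (counts scaled to a common library size after TMM factors, which correct for differences in library composition) in Nsd2fl/fl and 23.1 to 27.5 CPM in Nsd2ΔIE. Its log2 fold change was -1.23 (SE 0.159, unadjusted p = 0.000133 and adjusted p = 0.302 by edgeR's quasi-likelihood test). The groups also differed in their sex-linked genes. Xist, transcribed from the inactive X chromosome of females, had at most 0.104 CPM in Nsd2fl/fl and 535 to 611 CPM in Nsd2ΔIE, and the Y-linked genes on the list were at or near 0 in Nsd2ΔIE. The methods' description of male littermates is at odds with this pattern in Nsd2ΔIE. In all that follows, genotype and the sex-linked pattern cannot be told apart. The first principal component, with 51% of the variance, split both groups. Nsd2fl/fl replicates 1 and 3 and Nsd2ΔIE replicate 1 lay on one side and the other libraries on the other. Hoxb13, a gene of the distal colon, had 310 to 365 CPM on the first side and 0.706 to 26.2 CPM on the second.

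Heat shock proteins are chaperones that keep other proteins folded. HSP70 proteins bind exposed hydrophobic stretches, J-domain proteins such as DNAJB1 deliver clients to them and trigger their ATP hydrolysis, and HSP110 proteins exchange the ADP for ATP. HSP90 takes over client kinases and receptors from HSP70, small heat shock proteins hold unfolded proteins, and the HSP60 and HSP10 chaperonin folds proteins in mitochondria. When unfolded protein builds up, the transcription factor HSF1 forms trimers and binds heat shock elements, runs of GAA and its reverse complement TTC spaced 2 bases apart, in the promoters of many of these genes. In the colon, epithelial cells at the luminal surface and smooth muscle cells are both known to carry heat shock proteins.

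Heat shock elements were searched because members with and without them can then be set beside each other in the expression data. RefSeq promoter windows of assembly GRCm38.p6 were available for 8 of the 10 genes, and Hspa8 and Hsp90aa1 had none. The 250 bases upstream of each start were searched for a pair of units, GAANNTTC or TTCNNGAA. Each of these motifs reads the same on both strands, and neighbouring pairs can share a unit. The 8 genes had 11 windows, some with more than one start. A pair was found in 7 of these 11 windows, belonging to 6 genes, where 12.8% of all 32851 promoter windows held one. Hspa4l and Dnajb1 had no match, which says only that these letters are not in their windows. The only window of Hspa4l lay inside its gene span, so the bases upstream of that span were not searched. Below, capitals mark the matched GAA and TTC units and each sequence is written 5′ to 3′ on the gene's own strand.

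Hspd1 and Hspe1 are shown first because they share one element. The genes lie head to head on chromosome 1, Hspd1 on the minus strand and Hspe1 on the plus strand, and their spans overlap by 96 bases. Hspd1 had 2 windows, and the one upstream of its whole gene span had no match. The element lies inside that span, upstream of the other, internal start of Hspd1. The same bases, chr1:55088053-55088082, are written here from each strand.
Hspe1: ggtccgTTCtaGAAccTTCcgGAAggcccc
Hspd1: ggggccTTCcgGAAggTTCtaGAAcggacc
These stretches hold 4 units in a row, TTCNNGAANNTTCNNGAA. Only 4 of the 32851 windows (0.0122%) held this longer motif, and the window of Hspe1 and the internal window of Hspd1 are 2 of them.

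Hsph1 is shown because its match lies closest to a start among the genes with a match, with its first base at position -33 from one annotated start. The starts of both Hsph1 windows are internal, and the match lies inside the gene span, as for Hspd1. The stretch is chr5:149636351-149636380 on the minus strand.
Hsph1: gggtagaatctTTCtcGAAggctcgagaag

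Hspa1a and Hspb1 are shown because their expression, described below, departed from that of Hspd1, Hspe1 and Hsph1. The Hspa1a stretch is the 150 bases upstream of its start, chr17:34972157-34972306 on the minus strand, with the match beginning at -104. The same stretch of Hspa1b, chr17:34959239-34959388, is identical at 149 of 150 positions and holds the same match. The Hspb1 stretch is chr5:135887769-135887918 on the plus strand, with matches beginning at -117 and -97.
Hspa1a: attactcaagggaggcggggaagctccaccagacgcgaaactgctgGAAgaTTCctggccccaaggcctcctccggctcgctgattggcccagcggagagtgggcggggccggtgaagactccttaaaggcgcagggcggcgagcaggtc
Hspb1: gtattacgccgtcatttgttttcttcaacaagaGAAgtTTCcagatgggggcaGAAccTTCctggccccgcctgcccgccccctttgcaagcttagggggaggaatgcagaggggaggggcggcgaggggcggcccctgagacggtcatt

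In the colon, 9 of the 10 genes had a lower fitted level in Nsd2ΔIE than in Nsd2fl/fl (8 with upper-quartile factors, library totals alone or FPKM, where Hspa1a changed sign), and Hspb1 had a higher one. None passed an adjusted p under 0.05 by edgeR's quasi-likelihood test, where 0.0306% of all genes tested passed. Those were 5 genes, all of them on the list of sex-linked genes. None of the 10 passed with DESeq2, which called 455 genes in all. Hspa4l alone had an unadjusted p under 0.05, and it also differed by more than 0.32 on the log2 scale, which together make the threshold that the study used. That is 1 of 10 genes lower at this threshold, where 2.21% of all genes tested were, and none higher, where 8.05% were. Over all genes these shares are 361 lower and 1316 higher genes, and with scaling by library totals alone they are 142 and 1717. The median log2 fold change of the 10 genes was -0.35, and that of all genes tested was -0.04. With library totals alone these medians were -0.20 and 0.09, and on the log2(FPKM + 1) scale -0.14 and 0.06. A fitted change below 0 was found for 56.3% of all genes. Fewer cells that express a gene and less RNA per cell cannot be told apart in whole tissue.

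**Figure D1:**
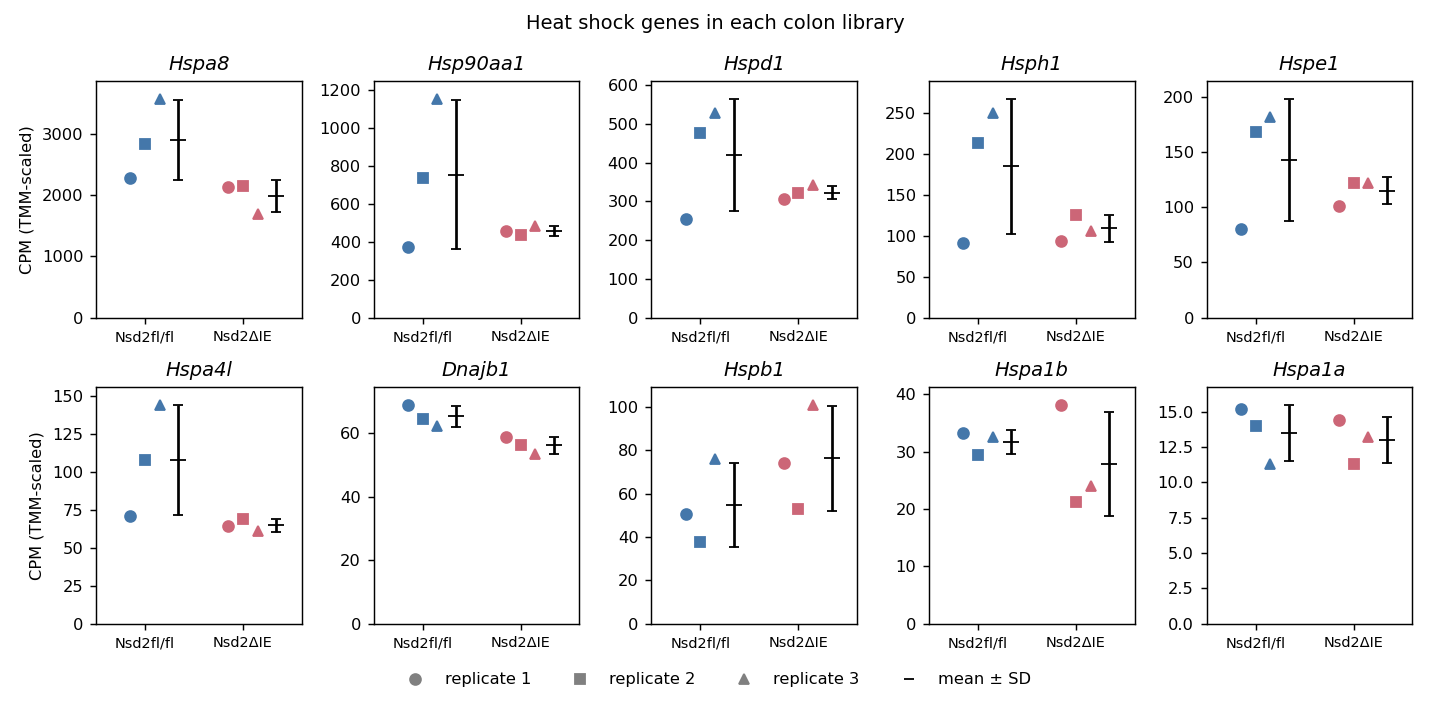
Level of each heat shock gene in the 6 colon libraries, in TMM-scaled CPM on a linear axis from 0, with 1 point per library and the mean ± SD of each group beside it (n = 3). The Nsd2fl/fl libraries of Hsp90aa1 run from 371 to 1157 CPM and the Nsd2ΔIE libraries from 434 to 486 CPM, while Dnajb1 and Hspa1a keep within narrow ranges in both groups.

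Levels per gene length, in the deposited FPKM, ordered the genes as follows. Hspa8 had 1308 ± 253 FPKM in Nsd2fl/fl and 985 ± 104 FPKM in Nsd2ΔIE (SD, n = 3 per group) and ranked 42nd of all genes by its mean over the 6 libraries. Hsp90aa1 came next with 250 ± 124 FPKM in Nsd2fl/fl and 168 ± 14.4 FPKM in Nsd2ΔIE. Hspe1, with 176 ± 62.3 and 157 ± 19.1 FPKM, and Hspd1, with 154 ± 47.7 and 131 ± 10.7 FPKM, followed, and the means of these 3 genes lay within their spread of one another in Nsd2fl/fl. Within each Nsd2fl/fl library, however, Hsp90aa1 exceeded Hspe1 and Hspe1 exceeded Hspd1. In Nsd2ΔIE replicate 2, Hspe1 (164 FPKM) exceeded Hsp90aa1 (156 FPKM). Hspb1 had 58.0 ± 20 FPKM in Nsd2fl/fl and 88.6 ± 30.5 FPKM in Nsd2ΔIE. Hsph1 and Dnajb1 lay between 14.4 and 36.4 FPKM in every library, and Hspa1b and Hspa4l between 6.81 and 14 FPKM, and neither pair could be ordered beyond its spread. Hspa1a was the lowest, with 4.64 ± 0.856 FPKM in Nsd2fl/fl and 4.84 ± 0.627 FPKM in Nsd2ΔIE.

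Hspa8 encodes HSC70, the HSP70 protein that cells make without stress and that also uncoats clathrin vesicles. It lies on chromosome 9 at 40801276-40805202. It had 2278, 2825 and 3572 CPM in Nsd2fl/fl replicates 1 to 3 and 2135, 2142 and 1685 CPM in Nsd2ΔIE replicates 1 to 3. All 3 Nsd2ΔIE libraries lay below all 3 Nsd2fl/fl libraries, although Nsd2fl/fl replicate 1 was close to the highest Nsd2ΔIE library. Its log2 fold change was -0.54 (SE 0.237, unadjusted p = 0.0579, adjusted p = 0.463 by edgeR), and it ran from -0.69 without Nsd2fl/fl replicate 1 to -0.35 without Nsd2fl/fl replicate 3. Hspa4l and Dnajb1 were the other 2 genes without overlap between the groups, so that 3 of 10 were lower in every Nsd2ΔIE library, where 7.28% of all genes tested were. In the deposited FPKM, which has no TMM scaling, 2 of 10 were (Hspa8 and Hspa4l), where 1.96% of all genes tested were.

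Hspa1a and Hspa1b encode the heat-inducible HSP70. They lie close together on chromosome 17, at 34969359-34972156 and 34956429-34959238. Hspa1a had 15.2, 14 and 11.3 CPM in Nsd2fl/fl and 14.4, 11.3 and 13.2 CPM in Nsd2ΔIE, and the groups overlapped throughout. Its log2 fold change of -0.06 (SE 0.173, adjusted p = 0.917 by edgeR) turned to 0.06 when libraries were scaled by their totals alone. Hspa1b had 33.2, 29.4 and 32.5 CPM in Nsd2fl/fl and 38.2, 21.3 and 24.1 CPM in Nsd2ΔIE. Nsd2ΔIE replicate 1 was the highest of all 6 libraries and the other Nsd2ΔIE libraries were the lowest. The log2 fold change of Hspa1b was -0.19 (SE 0.225, unadjusted p = 0.434, adjusted p = 0.785 by edgeR), and without Nsd2ΔIE replicate 1 it was -0.48 (unadjusted p = 0.0175, adjusted p = 0.333). Without Nsd2ΔIE replicate 2 it was -0.03 and without Nsd2ΔIE replicate 3 it was -0.09 (unadjusted p = 0.907 and 0.738).

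The split of reads between Hspa1a and Hspa1b is uncertain, because their coding sequences are identical at 1915 of 1923 positions (99.6%) and the treatment of reads that match both was not given in the sources used here. Of the 100-base stretches of Hspa1a, 52.9% did not occur in Hspa1b, and 50.1% of those of Hspa1b did not occur in Hspa1a. With the counts of both genes added, the levels were 49.2, 42.8 and 43.4 CPM in Nsd2fl/fl and 52.9, 32.8 and 37.3 CPM in Nsd2ΔIE. The summed log2 fold change was -0.14 (SE 0.189, unadjusted p = 0.488, adjusted p = 0.825 by edgeR). Per length, Hspa8 stood 62.7, 86.8 and 109 times above both inducible genes together in Nsd2fl/fl and 54.1, 87.6 and 60.2 times in Nsd2ΔIE, so the ratio of the constitutive to the inducible HSP70 overlapped between the groups.

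Dnajb1 encodes HSP40, the J-domain partner of the inducible HSP70 and a well known HSF1 target. It lies on chromosome 8 at 83608175-83612653. It had 68.9, 64.5 and 62.2 CPM in Nsd2fl/fl and 58.7, 56.1 and 53.4 CPM in Nsd2ΔIE. In CPM the groups did not overlap, and each varied little, by 1.11-fold from lowest to highest in Nsd2fl/fl and 1.1-fold in Nsd2ΔIE. The difference was small, with a log2 fold change of -0.22 (SE 0.0966, unadjusted p = 0.0595, adjusted p = 0.465 by edgeR). The groups overlapped in FPKM, with 21.6, 18.5 and 18 in Nsd2fl/fl libraries against 18.7, 17.8 and 17.9 in Nsd2ΔIE libraries. On the log2(FPKM + 1) scale the difference was -0.09 with an unadjusted p of 0.415.

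Hsph1 and Hspa4l encode HSP110 proteins, distant relatives of HSP70 that exchange its nucleotide and hold unfolded clients. Hsph1, on chromosome 5 at 149616843-149636498, had 91.4, 214 and 250 CPM in Nsd2fl/fl and 93.4, 126 and 106 CPM in Nsd2ΔIE. Nsd2fl/fl replicate 1 lay at the bottom of the whole range, below every Nsd2ΔIE library, and the other Nsd2fl/fl libraries lay above all of them. The log2 fold change of Hsph1 was -0.77 (SE 0.355, unadjusted p = 0.0681, adjusted p = 0.487 by edgeR), and without Nsd2fl/fl replicate 1 it was -1.10 (unadjusted p = 0.000783, adjusted p = 0.162). Without Nsd2fl/fl replicate 3 it was -0.48 (unadjusted p = 0.226, adjusted p = 0.704).

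Hspa4l, on chromosome 3 at 40744500-40796103, had 70.9, 108 and 144 CPM in Nsd2fl/fl and 64.6, 68.9 and 61.0 CPM in Nsd2ΔIE. All Nsd2ΔIE libraries were lower than all Nsd2fl/fl libraries, with Nsd2fl/fl replicate 1 just above them. The fitted log2 fold change was -0.73 (SE 0.244, unadjusted p = 0.021, adjusted p = 0.361 by edgeR). Left out in turn, Nsd2fl/fl replicate 3 took the log2 fold change to -0.45 (unadjusted p = 0.0503) and Nsd2ΔIE replicate 3 took it to -0.69 (unadjusted p = 0.0644), so that no member was called lower without either of these libraries.

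Hspa4, the more abundant and less heat-responsive relative of Hspa4l, was looked at beside it after its values were seen. It had 187, 219 and 294 CPM in Nsd2fl/fl and 222, 205 and 192 CPM in Nsd2ΔIE, and its log2 fold change was -0.18 (SE 0.185, adjusted p = 0.749 by edgeR), or 0.03 without Nsd2fl/fl replicate 3. The ratio of Hspa4 to Hspa4l in FPKM was 5.51, 4.24 and 4.26 in Nsd2fl/fl libraries and 7.16, 6.21 and 6.56 in Nsd2ΔIE libraries, without overlap. This ratio does not depend on library scaling and was not tested.

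Hsp90aa1 encodes the inducible cytosolic HSP90, on chromosome 12 at 110691036-110696395. It had 371, 737 and 1157 CPM in Nsd2fl/fl and 455, 434 and 486 CPM in Nsd2ΔIE. The 3 Nsd2fl/fl libraries spanned 3.12-fold, the widest range of the 10 genes, and the 3 Nsd2ΔIE libraries 1.12-fold. Nsd2fl/fl replicate 1 was again below every Nsd2ΔIE library. Its log2 fold change was -0.72 (SE 0.379, unadjusted p = 0.101, adjusted p = 0.546 by edgeR), and it ran from -1.05 without Nsd2fl/fl replicate 1, with an unadjusted p of 0.0041, to -0.26 without Nsd2fl/fl replicate 3.

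Hsp90ab1, the constitutive HSP90, had 1681, 2381 and 2338 CPM in Nsd2fl/fl and 1633, 1579 and 1567 CPM in Nsd2ΔIE. The fitted difference was -0.42 on the log2 scale (SE 0.201, unadjusted p = 0.0751, adjusted p = 0.499 by edgeR), and every Nsd2ΔIE library was lower than every Nsd2fl/fl library. In FPKM, Hsp90ab1 stood 5.15, 3.67 and 2.30 times above Hsp90aa1 in Nsd2fl/fl and 4.08, 4.13 and 3.66 times above it in Nsd2ΔIE. The inducible form thus took its largest and its smallest share of cytosolic HSP90 transcripts in control libraries, Nsd2fl/fl replicates 3 and 1.

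Hspd1 encodes HSP60 and Hspe1 its lid, HSP10. The genes lie on chromosome 1 at 55077833-55088243 and 55088148-55091317 and share the element printed above. Hspd1 had 256, 476 and 529 CPM in Nsd2fl/fl and 307, 321 and 342 CPM in Nsd2ΔIE. Hspe1 had 79.9, 168 and 182 CPM in Nsd2fl/fl and 101, 122 and 122 CPM in Nsd2ΔIE. For both genes, Nsd2fl/fl replicate 1 was the lowest library and the other Nsd2fl/fl libraries were the highest, so the Nsd2ΔIE values lay between them.

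The log2 fold change was -0.38 for Hspd1 (SE 0.268, adjusted p = 0.646 by edgeR) and -0.31 for Hspe1 (SE 0.299, adjusted p = 0.731). The 2 genes followed each other more closely than any other pair of the 10, with a Pearson r of 0.98 between their log2 CPM over the 6 libraries. Their FPKM ratio, Hspe1 over Hspd1, stayed between 1.05 and 1.29 in all libraries. RefSeq lists processed pseudogenes of both genes, and how reads shared with these were counted was not given in the sources used here.

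Hspb1 encodes HSP27 (HSP25 in mice), a small heat shock protein that also binds actin filaments, on chromosome 5 at 135887919-135889563. It had 50.6, 37.8 and 75.9 CPM in Nsd2fl/fl and 74.2, 53.1 and 101 CPM in Nsd2ΔIE. It was the only member of the 10 with a fitted level above that of Nsd2fl/fl, but the groups overlapped. Its log2 fold change was 0.48 (SE 0.316, unadjusted p = 0.178, adjusted p = 0.631 by edgeR). It was 0.22 without Nsd2ΔIE replicate 3 and reached 0.78 without Nsd2fl/fl replicate 3 (unadjusted p = 0.0447, adjusted p = 0.547).

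Of the other small heat shock proteins, 6 of 9 listed genes were tested, 5 had fitted changes above 0 and 3 passed an unadjusted p under 0.05, all higher in Nsd2ΔIE, where 11.1% of all genes tested passed in either direction. No adjusted p was below 0.326. The 6 genes had a median of 0.87 on the log2 scale. Hspb6, a phosphoprotein of smooth muscle, had 11.7, 6.87 and 16.9 CPM in Nsd2fl/fl and 18.9, 27.6 and 38.9 CPM in Nsd2ΔIE, or 1.27 higher on the log2 scale (SE 0.383, unadjusted p = 0.0136). Cryab, which encodes αB-crystallin, had 25.2, 18.0 and 30.1 CPM in Nsd2fl/fl and 31.3, 46.4 and 66.6 CPM in Nsd2ΔIE, a log2 fold change of 0.98 (SE 0.307, unadjusted p = 0.016). Hspb2, a binding partner of the myotonic dystrophy kinase, had a log2 fold change of 1.12 (SE 0.384, unadjusted p = 0.0234), and Hspb7 one of 0.76 (unadjusted p = 0.0622).

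Markers of smooth muscle moved with these genes. The summed level of 10 smooth muscle markers ran from 1617 to 4509 CPM in Nsd2fl/fl and from 5599 to 12014 CPM in Nsd2ΔIE, without overlap. All 10 had fitted changes above 0, 8 of them with an unadjusted p under 0.05, and their median log2 fold change was 1.21. Such a p was found in either direction for 11.1% of all genes tested. Over the 6 libraries, log2 CPM of Hspb1 had a Pearson r of 0.80 with the smooth muscle markers, while Dnajb1 had -0.74, Hspa8 -0.67, Hspa4l -0.61, Hsph1 -0.56 and Hsp90aa1 -0.41. The part of smooth muscle content in the levels of the heat shock genes was not tested.

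**Figure D2:**
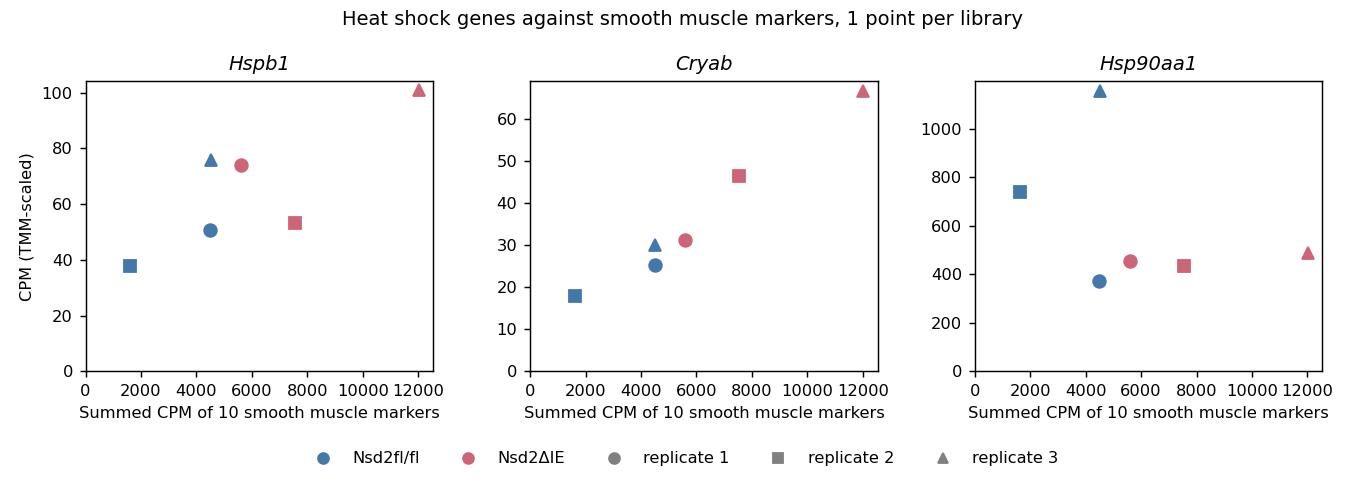
CPM of Hspb1, of Cryab and of Hsp90aa1 (vertical axes, linear from 0) against the summed CPM of 10 smooth muscle markers, with 1 point per library, colours for the groups and marker shapes for the replicates. Hspb1 and Cryab are highest in the library with the most smooth muscle transcript, Nsd2ΔIE replicate 3, with 101 and 66.6 CPM, whereas Hsp90aa1 differs 3.12-fold among Nsd2fl/fl libraries.

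Other tissue markers also differed between the libraries. All 10 epithelial markers had fitted changes below 0 (8 of 10 in FPKM) and none passed an unadjusted p under 0.05, with a median log2 fold change of -0.28 and sums of 13405 to 22441 CPM in Nsd2fl/fl against 12972 to 14802 CPM in Nsd2ΔIE. All 10 enteric neuron markers passed an unadjusted p under 0.05, higher in Nsd2ΔIE, where 11.1% of all genes tested passed in either direction. Their sums were 66.6 to 132 CPM in Nsd2fl/fl and 169 to 210 CPM in Nsd2ΔIE. Higher at that p were also 5 of 8 glial, 4 of 7 adipocyte, 4 of 8 fibroblast, 1 of 8 endothelial and 1 of 5 skeletal muscle markers tested, and 0 of 10 leukocyte markers. Defining markers of epithelium were far above 0 in every library, as the colon label requires. The part of these cell types in the levels of the heat shock genes was not tested.

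The 10 genes did not move as one set across the libraries. Hspa8, Hspa4l, Hsph1, Hsp90aa1, Hspd1 and Hspe1 moved together, with Pearson r between 0.64 and 0.98 for every pair of their log2 CPM over the 6 libraries, all 6 of which share the same scaling. Hspa1a had r between -0.61 and -0.31 with these 6 genes, Hspa1b between -0.18 and 0.39, Dnajb1 between -0.13 and 0.58 and Hspb1 between -0.36 and 0.04. Hspa1a had r of 0.55 with Hspa1b and 0.46 with Dnajb1, and Hspa1b had 0.59 with Dnajb1. Hspb1 had r of -0.22 with Hspa1a, -0.01 with Hspa1b and -0.65 with Dnajb1. These are descriptions over 6 libraries, and the 6 genes were set together after their values were seen. In this group, Hspe1, Hspd1 (in its internal window only) and Hsph1 (with internal starts only) had a match in a window searched. So did Hspa1a, Hspa1b and Hspb1 outside it. Hspe1 and Hspd1 shared 4 units in a row. The other genes with a match held only pairs of units, and 12.8% of all windows held a pair. Hspa4l inside the group, whose only window lay inside its gene span, and Dnajb1 outside the group had no match.

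**Figure D3:**
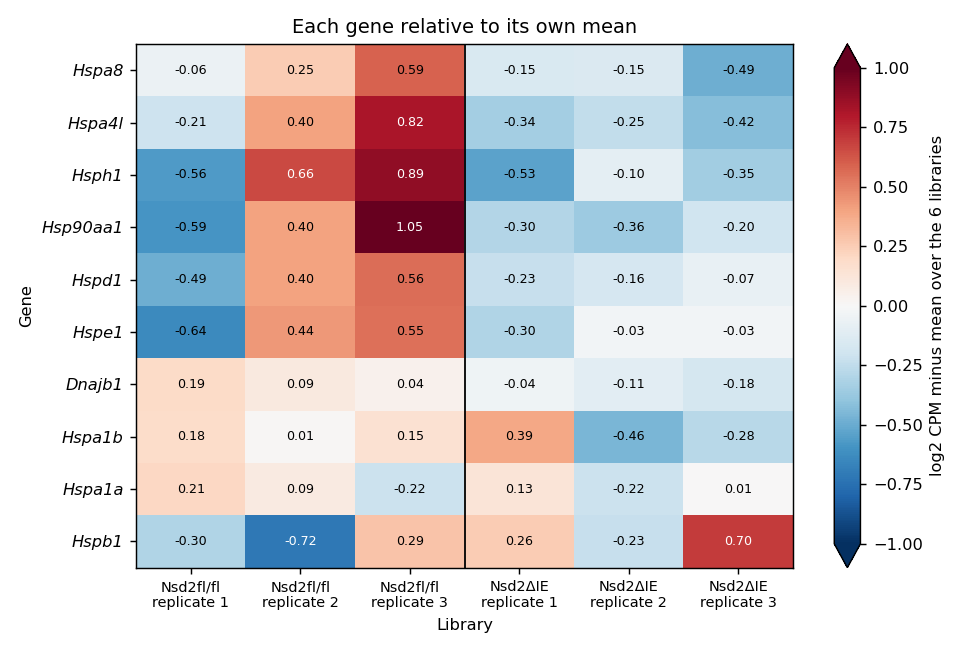
Log2 CPM of each heat shock gene minus its own mean over the 6 libraries, with 1 column per library, the value printed in each cell and a line between the groups. The 6 upper rows are above their mean in Nsd2fl/fl replicates 2 and 3 and below it in Nsd2fl/fl replicate 1 and in every Nsd2ΔIE library. None of the 4 lower rows follows this pattern.

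For most of these genes the controls spread more widely than Nsd2ΔIE. In Nsd2fl/fl, 6 of the 10 genes had at least a 2-fold range from the lowest to the highest library, where 25.3% of all genes tested had, and in Nsd2ΔIE none did, where 14.8% of all genes had. A wider range in Nsd2fl/fl than in Nsd2ΔIE was found for 9 of the 10 genes and for 73.7% of all genes, and Hspa1b was the exception. The mean of the centred log2 CPM over the 10 genes was -0.23, 0.20 and 0.47 in Nsd2fl/fl libraries and -0.11, -0.21 and -0.13 in Nsd2ΔIE libraries. Nsd2fl/fl replicate 1 thus had the lowest mean of all libraries and Nsd2fl/fl replicate 3 the highest.

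The fitted changes therefore depended on which control libraries were present. Without Nsd2fl/fl replicate 1, 6 genes passed the study's threshold as lower, Hsph1, Hsp90aa1, Hspa4l, Hspa8, Hspd1 and Hspe1, where 4.48% of all genes passed in that fit, and the median log2 fold change of the 10 genes was -0.62. Without Nsd2fl/fl replicate 3, none passed as lower, where 2.68% of all genes did, Hspb1 passed as higher, where 5.55% did, and the median was -0.21. Hspd1 ran from -0.64 to -0.17 and Hspe1 from -0.60 to -0.09 between these alternatives. No gene of the 10 reached an adjusted p under 0.05 in either, and the smallest adjusted p in them was 0.162.

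**Figure D4:**
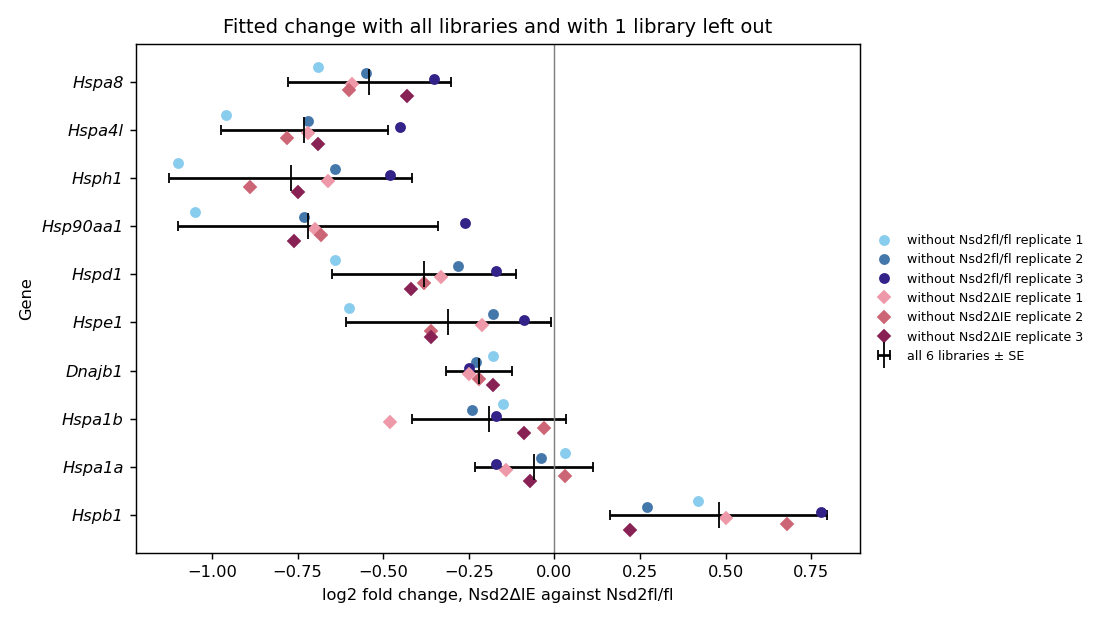
Log2 fold change of each heat shock gene with all 6 libraries (black, ± SE) and with each library left out in turn (coloured points). Points without Nsd2fl/fl replicate 1 lie farthest to the left and points without Nsd2fl/fl replicate 3 farthest to the right for the 6 upper genes, and only Hspa1a has points on both sides of 0.

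The members were also compared within each side of the first principal component. Within the side with Nsd2fl/fl replicates 1 and 3 and Nsd2ΔIE replicate 1, the log2 difference between Nsd2ΔIE and Nsd2fl/fl was -0.42 for Hspa8, -0.64 for Hspa4l, -0.69 for Hsph1 and -0.53 for Hsp90aa1. On that side Nsd2ΔIE replicate 1 was above Nsd2fl/fl replicate 1 for Hsph1 (93.4 against 91.4 CPM) and Hsp90aa1 (455 against 371 CPM). For Hspa8 (2135 against 2278 CPM) and Hspa4l (64.6 against 70.9 CPM) it was below it. Within the other side, with 1 Nsd2fl/fl and 2 Nsd2ΔIE libraries, it was -0.57, -0.73, -0.89 and -0.68 for these genes in the same order. Hspb1 was higher in Nsd2ΔIE on both sides, by 0.26 and 0.95. On the first side, however, Nsd2ΔIE replicate 1 (74.2 CPM) lay between Nsd2fl/fl replicates 1 and 3 (50.6 and 75.9 CPM). Hspa1a and Hspa1b differed in sign between the sides, with 0.14 and 0.22 on the first and -0.20 and -0.37 on the second. A group had only 1 library on each side, and these differences have no test.

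The rest of the chaperone network was described from fixed lists. No gene of the 8 chaperone lists besides the 10 genes passed an adjusted p under 0.05 by edgeR. Of the 6 tested heat shock factors and their regulators, 4 had fitted changes below 0 (1 with library totals alone) and none passed an unadjusted p under 0.05. Hsf1, the heat shock factor itself, was added after its values were seen and had 28.0, 34.7 and 34.1 CPM in Nsd2fl/fl and 30.5, 30.9 and 30.9 CPM in Nsd2ΔIE, with a log2 fold change of -0.07 (SE 0.118, unadjusted p = 0.571) that was 0.06 with library totals alone or in FPKM. Hsf2, a related factor, was higher in every Nsd2ΔIE library, with 7.27, 7.04 and 5.42 against 7.92, 9.92 and 7.93 CPM and a log2 fold change of 0.39 (unadjusted p = 0.0885, adjusted p = 0.523 by edgeR).

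At the study's threshold, 2.21% of all genes tested were lower in Nsd2ΔIE and 8.05% were higher. Among 14 other HSP70 and J-domain genes of the cytosol, none was lower at it and 3 were higher. They were Hspa2, a testis-enriched HSP70, with 6.08, 4.18 and 5.31 CPM in Nsd2fl/fl and 10.2, 7.85 and 8.27 CPM in Nsd2ΔIE (log2 fold change 0.76, unadjusted p = 0.00921), and the J-domain genes Dnajb5 (0.90, unadjusted p = 0.0262) and Dnajb4 (0.46, unadjusted p = 0.0311). Dnaja1, a J-domain partner of HSC70, had 125, 190 and 288 CPM in Nsd2fl/fl and 124, 148 and 122 CPM in Nsd2ΔIE (log2 fold change -0.61, unadjusted p = 0.0751). Its Nsd2fl/fl replicate 1 lay among the Nsd2ΔIE libraries, and the other Nsd2fl/fl libraries lay above all of them. The median over the 14 genes was -0.07, and 0.06 with library totals alone.

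Of the 9 nucleotide exchange factors and other cofactors of HSP70, none passed an unadjusted p under 0.05. Bag2 had the largest fitted change, 0.92 (SE 0.401, unadjusted p = 0.0561), and Bag3, an HSF1 target, had 64.8, 50 and 62.4 CPM in Nsd2fl/fl and 57.5, 46.4 and 49.8 CPM in Nsd2ΔIE. Of 15 HSP90 genes and cofactors, 11 had fitted changes below 0 (10 with library totals alone), with a median of -0.23. Chordc1, an HSP90 cochaperone, alone passed the study's threshold, with 35.6, 48.1 and 71.4 CPM in Nsd2fl/fl and 33.5, 36.9 and 30.6 CPM in Nsd2ΔIE (log2 fold change -0.62, SE 0.249, unadjusted p = 0.0429). Lower at this threshold were 2.21% of all genes tested.

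All 8 subunits of the cytosolic chaperonin TRiC had fitted changes between -0.22 and -0.12 (6 of 8 were below 0 with library totals alone), and none passed an unadjusted p under 0.05. The 10 other mitochondrial chaperones and proteases had a median of -0.06, or 0.07 with library totals alone, and none passed, with Hspa9, the mitochondrial HSP70, at -0.15 (SE 0.144, unadjusted p = 0.345). Of 15 chaperones of the endoplasmic reticulum (ER), 14 had fitted changes below 0, also with library totals alone and in FPKM, with a median of -0.44. Creld2 passed the study's threshold as lower (log2 fold change -0.90, SE 0.346, unadjusted p = 0.0364, adjusted p = 0.419 by edgeR), where 2.21% of all genes tested did. The fitted changes of the ER list thus lay further below 0 at the median than those of the 10 heat shock genes, a difference that was not tested.

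**Figure D5:**
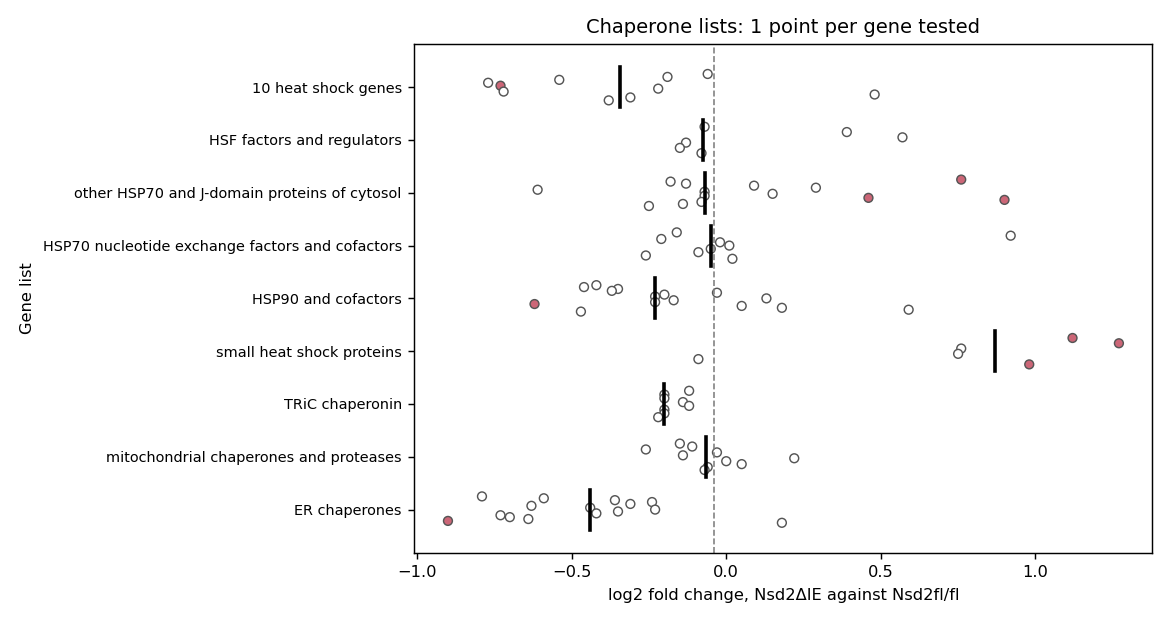
Log2 fold change of every tested gene of 9 chaperone lists (1 point per gene), with filled points for an unadjusted p under 0.05, a black bar at the median of the list and a dashed line at the median of all genes tested, -0.04. The ER list has its median at -0.44, the 10 heat shock genes at -0.35 and the other small heat shock proteins at 0.87.

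The ER chaperones shared the control pattern of the 6 genes that moved together. Hspa5, the HSP70 of the ER, was chosen as an example after its values were seen, with 569, 968 and 1982 CPM in Nsd2fl/fl and 796, 579 and 659 CPM in Nsd2ΔIE (log2 fold change -0.79, SE 0.437, adjusted p = 0.562 by edgeR). Nsd2fl/fl replicate 1 was its lowest library and Nsd2fl/fl replicate 3 its highest. Over the 6 libraries, the ER list had a Pearson r of 0.99 with Hsp90aa1, 0.93 with Hspa4l and 0.91 with Hspd1, but 0.20 with Dnajb1, 0.09 with Hspb1 and -0.45 with Hspa1a.

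Genes that respond to body temperature, handling or time of day were listed because heat shock genes are known to respond to the same conditions. Cirbp, a cold-inducible RNA-binding protein, had 17.8, 17.6 and 15.7 CPM in Nsd2fl/fl and 22.5, 21.0 and 22.3 CPM in Nsd2ΔIE. Every Nsd2ΔIE library exceeded every Nsd2fl/fl library, and the log2 fold change was 0.36 (SE 0.115, unadjusted p = 0.017, adjusted p = 0.346 by edgeR). Rbm3, the other gene of this kind, had a log2 fold change of -0.31 (unadjusted p = 0.164). Of 16 immediate early genes, which are induced within minutes of tissue handling, Klf4 passed the study's threshold as lower and Ier3 as higher, with a median of 0.13 over the list. Among all genes tested, 2.21% passed as lower and 8.05% as higher.

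Clock genes were listed for the same reason. Of 16 tested, 4 passed the study's threshold as lower, where 2.21% of all genes tested did, and 5 as higher, where 8.05% did. Arntl, which encodes the clock activator BMAL1, had 17.2, 32.4 and 38.8 CPM in Nsd2fl/fl and 14.5, 8.96 and 6.53 CPM in Nsd2ΔIE (log2 fold change -1.56, SE 0.391, unadjusted p = 0.00562, adjusted p = 0.303 by edgeR). Npas2, its partner, had a log2 fold change of -1.91 (SE 0.355, unadjusted p = 0.00113) and Hlf, a clock output gene, one of 1.05 (SE 0.223, unadjusted p = 0.00242). Over the 6 libraries, Arntl had a Pearson r of 0.95 with Hspa8, 0.90 with Hspa4l, 0.75 with Hsph1 and 0.74 with Hsp90aa1. With Dnajb1 it was 0.73, with Hspd1 0.67, with Hspa1b 0.58 and with Hspe1 0.52. With Hspa1a the value was near 0, and with Hspb1 it was -0.45. The labels give no time of collection, and the part of clock phase in the heat shock genes was not tested.

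The 8 genes whose log2 CPM most resembled the mean of the 10 heat shock genes were found among 13101 other tested genes with an average log2 CPM of at least 1. They were Mtbp with a Pearson r of 0.997, Uso1 with 0.994, Cdsn with 0.993, Septin11, Snrpf, Rrp7a and Tmed10-ps with 0.992 each, and Eftud2 with 0.991. Tmed10-ps is a pseudogene and may share reads with its parent. With 6 libraries such values are common, and 510 of the 13101 genes (3.89%) had r over 0.9.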

How the data were processed

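Total RNA of colon was sequenced in 6 libraries, and groups and replicate numbers came from the labels. The authors deposited a whole-number read count and an FPKM value per gene symbol, and per the labels the submitters' processing notes name fastp, HISAT2, HTSeq, R 3.2.0 and build mm10, while the annotation and strand setting were not given in the sources used here. For 17863 genes with reads in every library, count and FPKM implied one gene length to within 0.0638 bases. Library totals were 38041832 to 38604680 counts, and 20334 to 21312 genes were detected, so the spread between libraries (biological coefficient of variation 0.311), not depth, limited precision.

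Counts were tested with edgeR 4.0.16 (filterByExpr, TMM, quasi-likelihood, two-sided, no covariates) in R 4.3.3, with Benjamini-Hochberg adjustment over 16347 genes. SE is the size of the log2 fold change over the square root of F. Correlations used log2 CPM with a prior count of 2. Alternatives used DESeq2 1.42.0, limma 3.58.1, other scalings and filters, log2(FPKM + 1) and log2(FPKM + 0.1), a replicate block and leaving out each library. Libraries differed beyond counting noise, with a chi-square per degree of freedom of at least 35.5 for every pair. The members and the lists were chosen with earlier results of these data known. Named genes are the 10 members, up to 4 genes of smallest p per list, the 8 genes most like the members, and genes said to be chosen later. Sequences, motifs and loci came from RefSeq tables and GENCODE annotation of assembly GRCm38.p6, the build named mm10 in the labels, and all 10 members matched by symbol.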

Additional observations from a re-analysis of the deposited data

How the results depend on the processing

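The count of members at an adjusted p under 0.05 was 0 in all 17 alternatives. The count lower at the study's threshold was 1 with the reported fit, where 2.21% of all genes were. It was 3 without a filter on low counts (Hspa4l, Hspa8 and Hsph1), where 2.48% of all genes were lower. DESeq2 gave 3 (the same 3 by name), where 2.64% were lower. The count was 2 with limma-voom (2.1% of all genes) and 2 with the side of the first principal component as a covariate (3.32%). It was 0 on the log2(FPKM + 1) scale (0.661% of all genes) and the log2(FPKM + 0.1) scale (0.844%). Leaving out 1 library gave 0 to 6 members lower and 0 to 1 higher. The count lower was 6 without Nsd2fl/fl replicate 1 (4.48% of all genes) and 2 without Nsd2ΔIE replicate 1 (3.72%). It was 0 without Nsd2fl/fl replicate 3 (2.68% of all genes) or Nsd2ΔIE replicate 3 (0.879%). The median of the members, -0.35, ranged from -0.62 to -0.21 when 1 library was left out, and was -0.20 with library totals alone and -0.14 on both FPKM scales. Same-numbered libraries had deviation correlations of 0.501, 0.643 and -0.166. These values cannot settle whether replicate numbers pair the samples, because differently numbered libraries were not compared. The replicate block gave 2 members lower, where 3.68% of all genes were, and 1 higher (Hspb1), where 8.94% were. With it, the log2 fold change of Hspb1 was 0.48 (SE 0.0985, unadjusted p = 0.00299, adjusted p = 0.309 by edgeR). The replicate block changed no adjusted call. Scaling by library totals alone moved the median of all genes from -0.04 to 0.09. Hspa1a then changed sign to 0.06, as it did with upper-quartile factors (0.01), on the log2(FPKM + 1) scale (0.06), on the log2(FPKM + 0.1) scale (0.07), and without Nsd2fl/fl replicate 1 (0.03) or Nsd2ΔIE replicate 2 (0.03), within a range of -0.17 to 0.03 when 1 library was left out. Among the other genes recomputed, Hsbp1 changed sign to 0.01 with library totals and 0.00 on both FPKM scales, Hsf1 to 0.06 with library totals and on both FPKM scales, and Hspa4 to 0.03 without Nsd2fl/fl replicate 3, within a range of -0.32 to 0.03 when 1 library was left out. With DESeq2 the adjusted p of Hspa2 (0.047) and of Hspb6 (0.039) passed 0.05, and those of Npas2, Hlf, Arntl and Nsd2 did too. Over all genes, the count lower at the study's threshold, 361, ran from 108 on the log2(FPKM + 1) scale to 747 without Nsd2fl/fl replicate 1, the count higher, 1316, from 675 without Nsd2ΔIE replicate 3 to 1875 on the log2(FPKM + 0.1) scale, and the count at an adjusted p under 0.05, 5, from 3 without Nsd2fl/fl replicate 1 or 3 to 455 with DESeq2. The causes were not tested.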
